A study of Homo sapiens with 8 samples.

Results

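The 40 genes described here are MYC, its partner MAX and 38 genes of the nucleolus that make ribosomes: RNA polymerase I and its factors, nucleolar chaperones and proteins of small nucleolar ribonucleoproteins (snoRNPs), and processing factors of the small and large ribosomal subunits. They were taken by symbol from a list of names, with no threshold on any level or fold change, and 40 of 40 were among the 13546 genes of the count table. RNA was measured in tumours that grew from MDA-MB-231, an established human triple-negative breast cancer cell line, in nude mice, which lack a thymus and therefore T cells. In 4 libraries the injected cells carried intact CDK4 (CDK4WT) and in 4 they were CDK4 knockout cells (CDK4KO). CDK4 pairs with D-type cyclins to phosphorylate RB, and the series title ties it to the cytoskeleton and actomyosin contractility. The labels do not say how CDK4 was disrupted, whether the knockout is 1 clone, or whether each tumour came from its own mouse. Neither the mice's age, the time of growth nor any treatment is stated there.

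RNA polymerase I transcribes the ribosomal DNA in the nucleolus into a long precursor, which snoRNPs modify and which the small-subunit processome and the pre-ribosomal particles of the large subunit fold, cut and trim into mature rRNA. MYC, a basic helix-loop-helix leucine zipper protein, pairs with MAX on E-box sequences and is a main activator of the genes for this machinery, so that ribosome production follows growth signals. Nucleolar output is often raised in cancer cells, and enlarged nucleoli are a long-known feature of aggressive tumours.

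Library totals were 27840883 to 33617977 counts, and levels are given as CPM, the counts of a gene relative to the library total after TMM scaling, a correction for differences in library composition. CDK4 mRNA stood at 115, 107, 116 and 112 CPM in CDK4WT replicates 1 to 4 and 111, 119, 125 and 134 CPM in CDK4KO replicates 1 to 4, a log2 fold change of 0.12 ± 0.06 (SE; 95% interval -0.03 to 0.26; edgeR adjusted p = 0.477). All fold changes are log2, CDK4KO minus CDK4WT. This level does not test the knockout, since the kind of disruption is not known here. The line's defining markers VIM, CD44, EGFR, KRT18, KRT8, ANXA1, MSN and AXL were present (8 of 8), and ESR1, PGR and CDH1 were not in the table, while ERBB2, GATA3 and FOXA1 were, at mean CDK4WT levels of 98.7, 7.29 and 2.63 CPM. Host cell markers, which may hold reads of conserved mouse transcripts, were in the table for 5 of 8 genes for fibroblasts, 5 of 8 for endothelium, 4 of 8 for leukocytes, 2 of 8 for muscle, 2 of 6 for fat, 2 of 6 for Schwann cells and neurons and 0 of 4 for erythroid cells. Log2 fold changes were positive for 5 of 5 endothelial and 2 of 2 Schwann and neuron genes, and negative for 2 of 2 muscle and 2 of 2 fat genes. Fibroblast genes had 3 positive and 2 negative and leukocyte genes 2 of each. With all libraries edgeR called 0 in these lists (0.0591% of all genes), and DESeq2 called 1, the muscle gene DES (2.33% of all genes called). DES had a fold change of -1.33 and a DESeq2 adjusted p of 0.0328. Its means were low, 2.57 CPM in CDK4WT and 1.02 CPM in CDK4KO. At an unadjusted edgeR p of 0.05 there were 2 of 2 muscle, 2 of 2 fat and 2 of 5 endothelial genes (13.0% of all genes). The fibroblast, leukocyte and Schwann and neuron lists had 0 there. Whether host content differed between the genotypes was not tested. In bulk tumours, fewer cells of a type and less RNA per cell cannot be told apart. CDK4KO replicate 1 stood apart from the other 7 libraries in the genes described here, and results that rest on it are given with and without it.

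Promoter sequences are shown for the members that hold the canonical E-box CACGTG, the preferred site of MYC and MAX, because this is the sequence through which the group's name ties them to MYC. The promoters run from 250 bases before to 50 after each annotated start, come from RefSeq (GRCh38.p14, the same build as the counts) and were matched by symbol for 32 of 40 members. TCOF1, DDX18, NOP58, BOP1, RRS1, MYC, RRP12 and NOLC1 had no entry. In 4 members the E-box lay wholly before the start, and 100 bases before the start are printed 5′ to 3′ with the motif in capitals; DDX21 has more than 1 annotated start, and the stretch is that of the start next to its E-box.
DDX21 (chr10:68956547-68956646, plus strand): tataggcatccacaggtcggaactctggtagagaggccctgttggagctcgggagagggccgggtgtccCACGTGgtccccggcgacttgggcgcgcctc
UTP20 (chr12:101280005-101280104, plus strand): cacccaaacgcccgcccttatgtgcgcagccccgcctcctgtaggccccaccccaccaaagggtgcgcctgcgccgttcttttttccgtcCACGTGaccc
LYAR (chr4:4290022-4290121, minus strand): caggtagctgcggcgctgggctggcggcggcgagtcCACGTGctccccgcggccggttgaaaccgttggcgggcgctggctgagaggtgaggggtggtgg
UTP4 (chr16:69132549-69132648, plus strand): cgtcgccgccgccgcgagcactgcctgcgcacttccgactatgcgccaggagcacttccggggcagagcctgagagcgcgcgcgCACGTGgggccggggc
In the other 9 members the E-box spanned or followed the start, and the motif with up to 12 bases on each side is printed; these windows were chosen after the motif positions were seen.
RRP9 (chr3:51941892-51941921, minus strand): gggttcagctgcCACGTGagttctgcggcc
WDR43 (chr2:28894658-28894687, plus strand): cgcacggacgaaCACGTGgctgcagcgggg
FBL (chr19:39846356-39846385, minus strand): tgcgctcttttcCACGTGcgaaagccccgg
GNL3 (chr3:52686026-52686055, plus strand): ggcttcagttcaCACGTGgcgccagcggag
NOL6 (chr9:33473894-33473923, minus strand): ggcatttccgccCACGTGggaagctatgag
PES1 (chr22:30591880-30591909, minus strand): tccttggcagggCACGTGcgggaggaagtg
NOP14 (chr4:2963374-2963403, minus strand): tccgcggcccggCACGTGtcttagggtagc
BYSL (chr6:41921515-41921544, plus strand): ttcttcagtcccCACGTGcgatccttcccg
NOP2 (chr12:6568242-6568268, minus strand): aggtccggattgCACGTGgagggccgc
UBTF, the member with the largest positive fold change, held no CACGTG but the variant E-box CGCGTG, the reverse complement of CACGCG, and its 100 bases before the start are printed for that reason, a choice made after its values were seen.
UBTF (chr17:44220883-44220982, minus strand): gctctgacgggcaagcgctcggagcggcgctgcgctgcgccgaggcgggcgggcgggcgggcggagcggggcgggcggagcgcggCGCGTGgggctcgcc

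A gene was counted once if any of its promoters held a motif, and the 32 member genes had 42 promoters. The E-box CACGTG reads the same on both strands. It was in 13 of the 32 member genes (40.6%), against 1300 of 10667 genes of the count table (12.2%) and 2396 of 27305 genes with any promoter entry (8.77%). In all 13 it lay between 70 bases before and 50 after the start, limits that just enclose the positions found. Within them 6.22% of the genes of the count table hold it. Because the limits fit the members, the share to set beside theirs is the 12.2% of the full window. Counting the first base of the transcript as 1 and the base before it as -1, the motif began at -64 in LYAR, -31 in DDX21, -16 in UTP4, -10 in UTP20, -5 in RRP9, 4 in WDR43, 7 in FBL and GNL3, 14 in NOL6 and PES1, 16 in NOP14, 29 in BYSL and 36 in NOP2. By step, 7 of 9 small-subunit factors (77.8%) and 3 of 4 other nucleolar regulators held it, against 2 of 8 large-subunit factors, 1 of 5 chaperones and snoRNP proteins and 0 of 5 genes of Pol I transcription. The variant CACGCG or CGCGTG, which shares no full match with CACGTG, was in 4 of 5 genes of Pol I transcription. Over all members it was in 11 of 32 genes (34.4%, against 22.3% of the genes of the count table). These matches describe letters in a fixed window and are not evidence of binding.

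**Figure D1:**
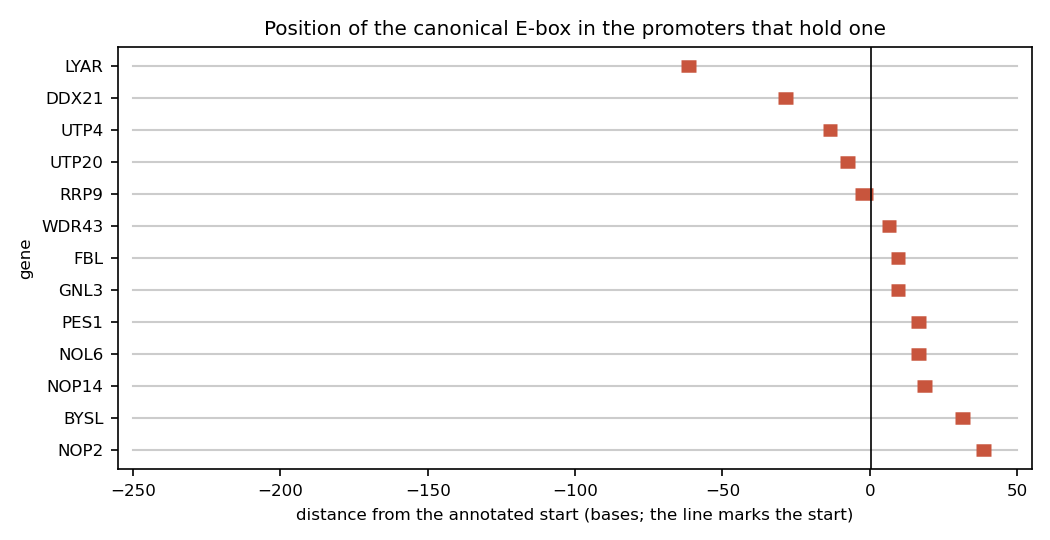
Position of CACGTG in the 13 member promoters that hold it. Each line is a promoter from 250 bases before to 50 after the annotated start, in bases on the horizontal axis, and the bar is the motif; all 13 bars lie within 70 bases before to 50 after the start.

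The design has 1 contrast, CDK4KO against CDK4WT tumours. The ribosome biogenesis genes differed little between them: edgeR's quasi-likelihood test called 0 of 40 at the adjusted threshold of 0.05, where it called 8 of all 13546 genes (0.0591%). At an unadjusted p of 0.05 there were 4 members, UBTF higher and DDX18, NPM1 and NOP58 lower in CDK4KO, which is 10% of the members where 13.0% of all genes reached it. In the same 4 genes the libraries of the genotypes did not overlap, as for 7.68% of all genes. DESeq2 called 2, UBTF and DDX18 (2.33% of all genes called), and limma voom with library weights called 0 (2.37% of all genes called). The median log2 fold change of the 40 was -0.03, with 14 positive and 26 negative, against 0.004 over all genes. Fold changes ran from -0.21 for DDX18 to 0.19 for UBTF, and the absolute fold change had a median of 0.06, against 0.09 over all genes. All 40 lay within 25% of equal levels, as did 90.9% of all genes. Without CDK4KO replicate 1 the median was 0.02, with 24 positive and 16 negative, and 8 members reached an unadjusted p of 0.05 (17.7% of all genes), with 0 passing after adjustment (1.35% of all genes).

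**Figure D2:**
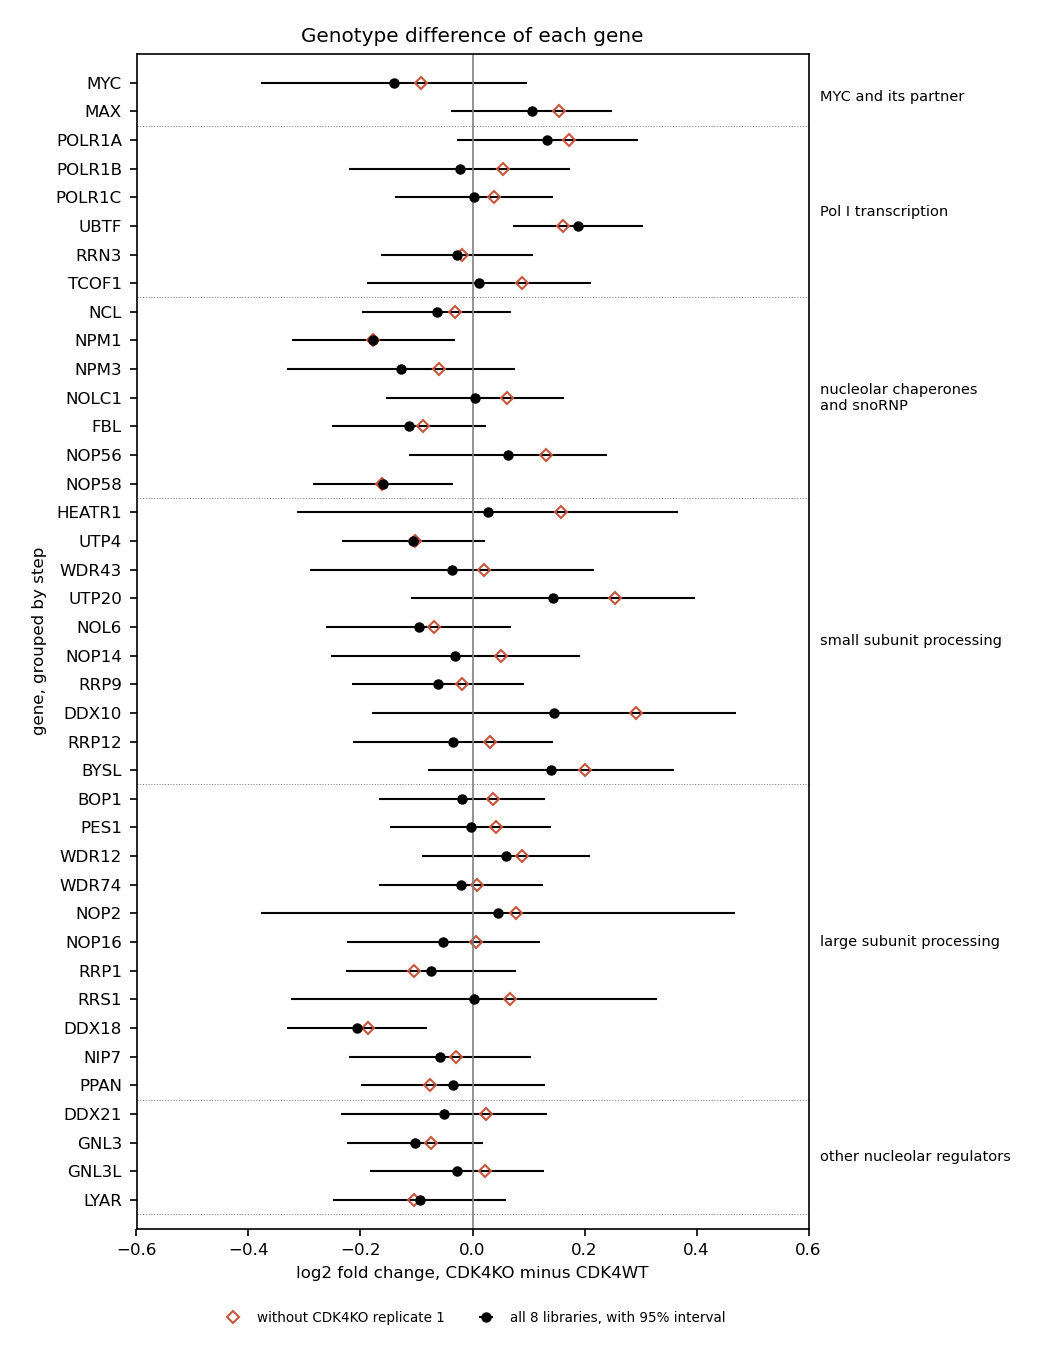
Log2 fold change, CDK4KO minus CDK4WT, for each of the 40 genes, grouped by step. Filled points are the fits of all 8 libraries with their 95% intervals and open diamonds the fits without CDK4KO replicate 1; the intervals of UBTF, NPM1, NOP58 and DDX18 do not include 0, and those of the other 36 genes do.

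MYC (ENSG00000136997) stood at 196, 224, 224 and 275 CPM in CDK4WT replicates 1 to 4 and 187, 224, 232 and 190.2 CPM in CDK4KO replicates 1 to 4. The genotypes overlapped: the highest library was CDK4WT replicate 4, and the low ones were CDK4WT replicate 1 and CDK4KO replicates 1 and 4. The fold change was -0.14 ± 0.11 (SE; 95% interval -0.38 to 0.10; edgeR adjusted p = 0.619), and the interval holds changes of either sign. MAX (ENSG00000125952), which MYC needs to bind DNA, stood at 91.7, 96.6, 96.7 and 99.7 CPM in CDK4WT replicates 1 to 4 and 92.6, 112, 106 and 103 CPM in CDK4KO replicates 1 to 4. CDK4KO replicates 2 to 4 were above every CDK4WT library and CDK4KO replicate 1 was among them, with a fold change of 0.11 ± 0.07 (SE; 95% interval -0.04 to 0.25; edgeR adjusted p = 0.538). Without that library it was 0.15 (edgeR adjusted p = 0.190; 0.12 to 0.742 over the alternatives).

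Among the 6 genes of Pol I transcription, 4 fold changes were positive and 2 negative, with a median of 0.006 (0.07 without CDK4KO replicate 1). UBTF (ENSG00000108312, chromosome 17, 44205033 to 44221626, hg38), which encodes UBF, the factor that wraps the ribosomal DNA and keeps it open for the polymerase, stood at 148, 142, 139.7 and 144 CPM in CDK4WT replicates 1 to 4 and 172, 155, 161 and 165 CPM in CDK4KO replicates 1 to 4. Every CDK4KO library was above every CDK4WT library, as for 3.87% of all genes in this direction, and CDK4KO replicate 1 was the highest. Its means were 143 ± 3.62 CPM (SD, n = 4) for CDK4WT and 164 ± 6.97 CPM (SD, n = 4) for CDK4KO, and the fold change was 0.19 ± 0.05 (SE; 95% interval 0.07 to 0.30; edgeR adjusted p = 0.190). DESeq2 gave UBTF an adjusted p of 0.0274, past the threshold that edgeR's test did not reach, and adjusted p ran from 0.0274 to 0.467 over the alternatives. Its SD of log2 CPM within genotypes, 0.05, was the smallest of the 40.

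POLR1A, the largest catalytic subunit of the polymerase, stood at 149.8, 157, 149 and 128 CPM in CDK4WT replicates 1 to 4 and 146, 165, 166 and 163 CPM in CDK4KO replicates 1 to 4. The low libraries were CDK4WT replicate 4 and CDK4KO replicate 1, and the genotypes overlapped. Its fold change was 0.13 ± 0.07 (SE; 95% interval -0.03 to 0.29; edgeR adjusted p = 0.474), and 0.17 without CDK4KO replicate 1. RRN3, which encodes TIF-IA, the initiation factor that ties the polymerase to growth signals, stood at 39.2, 37.1, 38.3 and 41.7 CPM in CDK4WT replicates 1 to 4 and 37.5, 40.2, 37.9 and 37.6 CPM in CDK4KO replicates 1 to 4. All 8 lay close together, with a fold change of -0.03 ± 0.06 (SE; 95% interval -0.16 to 0.11; edgeR adjusted p = 0.888). POLR1B, the second catalytic subunit, POLR1C, a subunit that Pol I shares with Pol III, and TCOF1, which encodes the nucleolar scaffold treacle, had fold changes of -0.02 ± 0.09, 0.002 ± 0.06 and 0.01 ± 0.09. Of the exon bases of POLR1C, 18.2% overlap other genes.

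Of the 7 nucleolar chaperones and snoRNP proteins, 5 fold changes were negative and 2 positive, with a median of -0.11 (-0.06 without CDK4KO replicate 1). NPM1 (ENSG00000181163, chromosome 5, 171387116 to 171411137, hg38), nucleophosmin, the abundant chaperone that gives the outer nucleolus its liquid-like body, stood at 858, 958, 917 and 1006 CPM in CDK4WT replicates 1 to 4 and 825, 854, 792 and 837 CPM in CDK4KO replicates 1 to 4. The lowest CDK4WT library lay just above the highest CDK4KO library, so the genotypes did not overlap, as for 3.81% of all genes in this direction. Means were 935 ± 62.7 CPM (SD, n = 4) for CDK4WT and 827 ± 26.0 CPM (SD, n = 4) for CDK4KO, with a fold change of -0.18 ± 0.07 (SE; 95% interval -0.32 to -0.03; edgeR adjusted p = 0.294). GENCODE names 45 pseudogenes after NPM1, and how reads shared with near-identical copies were counted is not stated, so its level is uncertain.

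NOP58 (ENSG00000055044, chromosome 2, 202265716 to 202303666, hg38), a core protein of the C/D box snoRNPs that guide rRNA methylation, stood at 63.2, 65.3, 64.4 and 62.2 CPM in CDK4WT replicates 1 to 4 and 57.0, 61.3, 55.3 and 54.7 CPM in CDK4KO replicates 1 to 4. CDK4KO replicate 2 came nearest to the CDK4WT libraries without reaching them. The fold change was -0.16 ± 0.06 (SE; 95% interval -0.28 to -0.04; edgeR adjusted p = 0.274). FBL, fibrillarin, the methyltransferase of the same particles, stood at 133, 135, 143 and 149.8 CPM in CDK4WT replicates 1 to 4 and 122, 125, 139 and 132 CPM in CDK4KO replicates 1 to 4, and the genotypes overlapped through CDK4KO replicate 3. Its fold change was -0.11 ± 0.06 (SE; 95% interval -0.25 to 0.02; edgeR adjusted p = 0.472). NOP56, the partner of NOP58 in these particles, had a positive fold change of 0.06 ± 0.08 (edgeR adjusted p = 0.780), a sign opposite to those of NOP58 and FBL, and the difference between these genes was not tested. NCL (nucleolin), NPM3 (a nucleoplasmin relative of NPM1) and NOLC1 (the snoRNP chaperone Nopp140) had -0.06 ± 0.06, -0.13 ± 0.09 and 0.004 ± 0.07.

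**Figure D3:**
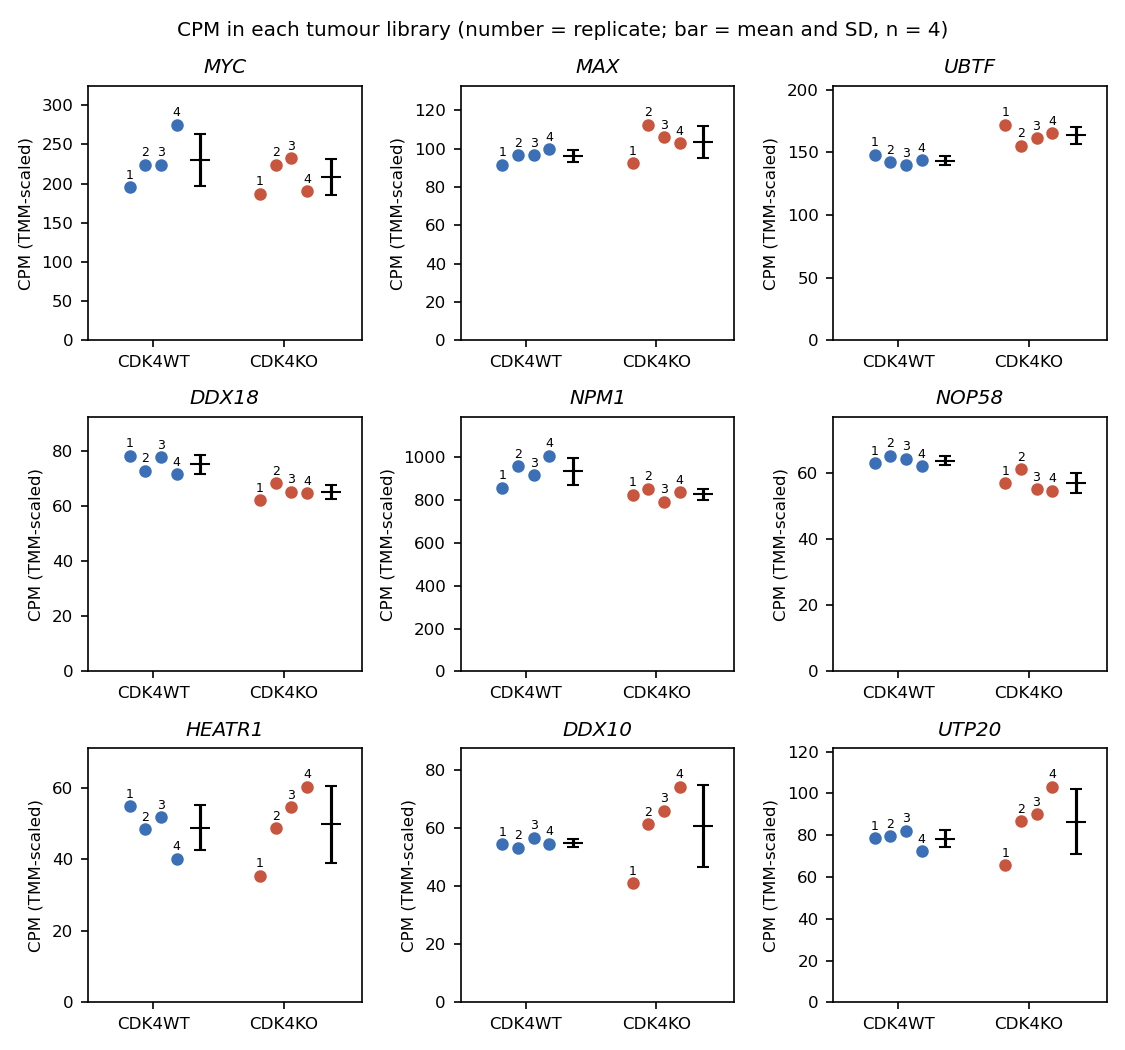
CPM of 9 genes in each library, on axes that start at 0. Points are libraries, numbered by replicate, and the bars are means with SD (n = 4 each); UBTF, DDX18, NPM1 and NOP58 separate the genotypes, and HEATR1, DDX10 and UTP20 are lowest in CDK4KO replicate 1 and highest in CDK4KO replicate 4.

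The 10 small-subunit factors had 4 positive and 6 negative fold changes and a median of -0.03 (0.04 without CDK4KO replicate 1), and none of them separated the genotypes. UTP4, cirhin, a part of the complex that joins the transcript first, stood at 49.9, 50.2, 45.5 and 47.4 CPM in CDK4WT replicates 1 to 4 and 44.6, 44.4, 44.3 and 46.2 CPM in CDK4KO replicates 1 to 4. CDK4KO replicate 4 lay above the lowest CDK4WT library and the other 3 CDK4KO libraries below it, with a fold change of -0.11 ± 0.06 (SE; 95% interval -0.23 to 0.02; edgeR adjusted p = 0.473). BYSL, bystin, a factor of late small-subunit particles, stood at 58.3, 57.7, 51.8 and 44.7 CPM in CDK4WT replicates 1 to 4 and 50.7, 65.1, 61.4 and 56.9 CPM in CDK4KO replicates 1 to 4. CDK4WT replicate 4 was the lowest library and CDK4KO replicate 2 the highest, with a fold change of 0.14 ± 0.10 (SE; 95% interval -0.08 to 0.36; edgeR adjusted p = 0.590). NOL6, a processome protein, stood at 135, 110.4, 117 and 109 CPM in CDK4WT replicates 1 to 4 and 104, 108, 114 and 116 CPM in CDK4KO replicates 1 to 4. CDK4WT replicate 1 was well above the other 7 libraries, and the fold change was -0.10 ± 0.08 (SE; 95% interval -0.26 to 0.07; edgeR adjusted p = 0.622).

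The widest spread of all members was in this step. DDX10, an RNA helicase of the small-subunit pathway, stood at 54.4, 53.2, 56.6 and 54.6 CPM in CDK4WT replicates 1 to 4 and 40.9, 61.3, 65.9 and 74.1 CPM in CDK4KO replicates 1 to 4. The CDK4WT tumours differed by 1.06-fold from lowest to highest and the CDK4KO tumours by 1.81-fold, with replicate 1 below and the other 3 above all of CDK4WT. Its fold change was 0.15 ± 0.15 (SE; 95% interval -0.18 to 0.47; edgeR adjusted p = 0.713), and without CDK4KO replicate 1 it was 0.29 (edgeR adjusted p = 0.0764; 0.0764 to 0.942 over the alternatives). UTP20, a large processome scaffold, stood at 78.7, 79.6, 82.1 and 72.5 CPM in CDK4WT replicates 1 to 4 and 65.5, 86.9, 90.1 and 103 CPM in CDK4KO replicates 1 to 4. Again CDK4KO replicate 1 was below and the other 3 above all of CDK4WT, over a 1.57-fold range. The fold change was 0.14 ± 0.11, or 0.25 without CDK4KO replicate 1 (edgeR adjusted p = 0.122; 0.122 to 0.879 over the alternatives). HEATR1, the homologue of yeast Utp10, stood at 54.9, 48.4, 51.8 and 40.2 CPM in CDK4WT replicates 1 to 4 and 35.4, 48.7, 54.6 and 60.3 CPM in CDK4KO replicates 1 to 4. It varied within both genotypes, 1.37-fold in CDK4WT and 1.70-fold in CDK4KO, and its SD of log2 CPM within genotypes, 0.27, was the largest of the 40. Of the exon bases of HEATR1, 23.2% overlap other genes, so part of its reads may belong to them. WDR43, a partner of UTP4 and HEATR1 in the same early complex, stood at 98.7, 105, 98.3 and 95.2 CPM in CDK4WT replicates 1 to 4 and 84.9, 114, 111 and 77.9 CPM in CDK4KO replicates 1 to 4. Here CDK4KO replicates 2 and 3 were the highest and replicates 1 and 4 the lowest of the 8 libraries, an order unlike that of HEATR1. NOP14 ranged 1.43-fold in CDK4KO, and fold changes were 0.03 ± 0.15 for HEATR1, -0.04 ± 0.11 for WDR43, -0.03 ± 0.10 for NOP14, -0.06 ± 0.07 for RRP9, a U3 snoRNP protein, and -0.03 ± 0.08 for RRP12, an export factor. Of the exon bases of NOP14, 17.1% overlap another gene, so part of its reads may belong to that gene.

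Of the 11 large-subunit factors, 3 fold changes were positive and 8 negative, with a median of -0.02 (0.008 without CDK4KO replicate 1). DDX18 (ENSG00000088205, chromosome 2, 117814650 to 117832379, hg38), the homologue of the yeast helicase Has1, stood at 78.4, 73.0, 77.9 and 71.6 CPM in CDK4WT replicates 1 to 4 and 62.3, 68.5, 65.3 and 64.7 CPM in CDK4KO replicates 1 to 4. Every CDK4KO library was below every CDK4WT library, CDK4KO replicate 1 being the lowest. Means were 75.3 ± 3.43 CPM (SD, n = 4) for CDK4WT and 65.2 ± 2.56 CPM (SD, n = 4) for CDK4KO, and the fold change, the most negative of the 40, was -0.21 ± 0.06 (SE; 95% interval -0.33 to -0.08; edgeR adjusted p = 0.187). DESeq2 gave it an adjusted p of 0.0401, past the threshold, and adjusted p ran from 0.0401 to 0.464 over the alternatives. Without CDK4KO replicate 1 the fold change was -0.19 by edgeR. GENCODE names 5 pseudogenes after DDX18.

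RRP1, a pre-ribosomal factor of the large subunit, stood at 42.0, 46.8, 40.9 and 44.6 CPM in CDK4WT replicates 1 to 4 and 43.8, 39.4, 39.1 and 43.3 CPM in CDK4KO replicates 1 to 4, overlapping between genotypes, with a fold change of -0.07 ± 0.07 (SE; 95% interval -0.23 to 0.08; edgeR adjusted p = 0.685). WDR12 belongs to the PeBoW complex with PES1 and BOP1, which is needed to mature the large-subunit rRNA. It stood at 45.9, 45.2, 44.8 and 39.97 CPM in CDK4WT replicates 1 to 4 and 42.9, 45.9, 49.2 and 45.3 CPM in CDK4KO replicates 1 to 4, with CDK4WT replicate 4 the lowest and a fold change of 0.06 ± 0.07 (SE; 95% interval -0.09 to 0.21; edgeR adjusted p = 0.745). The other PeBoW members, BOP1 and PES1, had fold changes of -0.02 ± 0.07 and -0.003 ± 0.07, and the 95% intervals of the 3 subunits reached from -0.17 to 0.21. RRS1, which helps to build the particle of 5S rRNA into the large subunit, ranged 1.57-fold in CDK4KO, from 12.8 CPM in replicate 4 to 20.1 CPM in replicate 2, with a fold change of 0.003 ± 0.15. NOP2, a methyltransferase relative, was the lowest member at 27 to 43 counts per library, and 54.4% of its exon bases overlap another annotated gene, so that its reads may have been left out or shared in counting. WDR74, NOP16, NIP7 and PPAN, further pre-ribosomal factors, had -0.02 ± 0.07, -0.05 ± 0.08, -0.06 ± 0.07 and -0.03 ± 0.07, and their exons overlap other genes over 22.3%, 20%, 20.2% and 59.8% of the bases.

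The 4 other nucleolar regulators had negative fold changes, with a median of -0.07 (-0.03 without CDK4KO replicate 1, where 2 were positive). GNL3, nucleostemin, a nucleolar GTPase abundant in dividing stem and tumour cells, stood at 138, 134, 141 and 147 CPM in CDK4WT replicates 1 to 4 and 122, 136, 132 and 131 CPM in CDK4KO replicates 1 to 4. CDK4KO replicate 1 was the lowest, and replicate 2 lay within the CDK4WT range, for a fold change of -0.10 ± 0.05 (SE; 95% interval -0.22 to 0.02; edgeR adjusted p = 0.461). LYAR, a nucleolar zinc finger protein, stood at 55.8, 61.3, 56.7 and 50.1 CPM in CDK4WT replicates 1 to 4 and 53.4, 49.1, 53.5 and 53.8 CPM in CDK4KO replicates 1 to 4, overlapping through CDK4WT replicate 4, with a fold change of -0.09 ± 0.07 (SE; 95% interval -0.25 to 0.06; edgeR adjusted p = 0.607). DDX21, a helicase that links Pol I transcription to rRNA processing, stood at 275, 286, 282 and 258 CPM in CDK4WT replicates 1 to 4 and 222, 285, 289 and 266 CPM in CDK4KO replicates 1 to 4. CDK4KO replicate 1 was far below the other 7, which overlapped, and the fold change was -0.05 ± 0.08 (SE; 95% interval -0.24 to 0.13; edgeR adjusted p = 0.835). GNL3L, a relative of nucleostemin, had -0.03 ± 0.07.

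The members were low together in 1 tumour of 8. CDK4KO replicate 1 lay below the gene's own mean over the 8 libraries in 37 of 40 members, with UBTF, PPAN and RRP1 the exceptions, where 50.2% of all genes lay below their mean in that library. It was the lowest library for 24 of 40 members (60%; 17.3% of all genes). Its median deviation was -0.15 on the log2 scale, against -0.04 to 0.05 in the other 7 libraries and -0.0006 for all genes in CDK4KO replicate 1. The summed CPM of the 40 genes was 4257 there and 4711 to 4885 in the others, and 4133 against 4702 to 4926 CPM when computed without the scaling factors. The small-subunit factors were below their mean in 10 of 10 cases, with a median deviation of -0.22, and summed to 586 CPM against 652 to 745 CPM elsewhere. The 140 further ribosome biogenesis genes of the table, from lists of other factors of each step, were below their mean there in 103 cases and lowest in 52 (37.1%), and summed to 8003 CPM against 8350 to 8530 CPM.

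Other measures of that library are given beside this. Its total of 30125963 counts was within the range of the others, and its TMM factor, 0.971, was the lowest of 8. The summed Schwann cell and neuron markers were 71.2 CPM there, the highest of the 8 libraries (41.5 to 52.4 CPM in CDK4WT). The summed markers of the tumour line were 16134 CPM there and 11729 to 16232 CPM in the other 7, and the 14 proliferation genes summed to 2102 CPM there, within the 1679 to 2194 CPM of CDK4WT. The part of these in the low values was not tested.

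**Figure D4:**
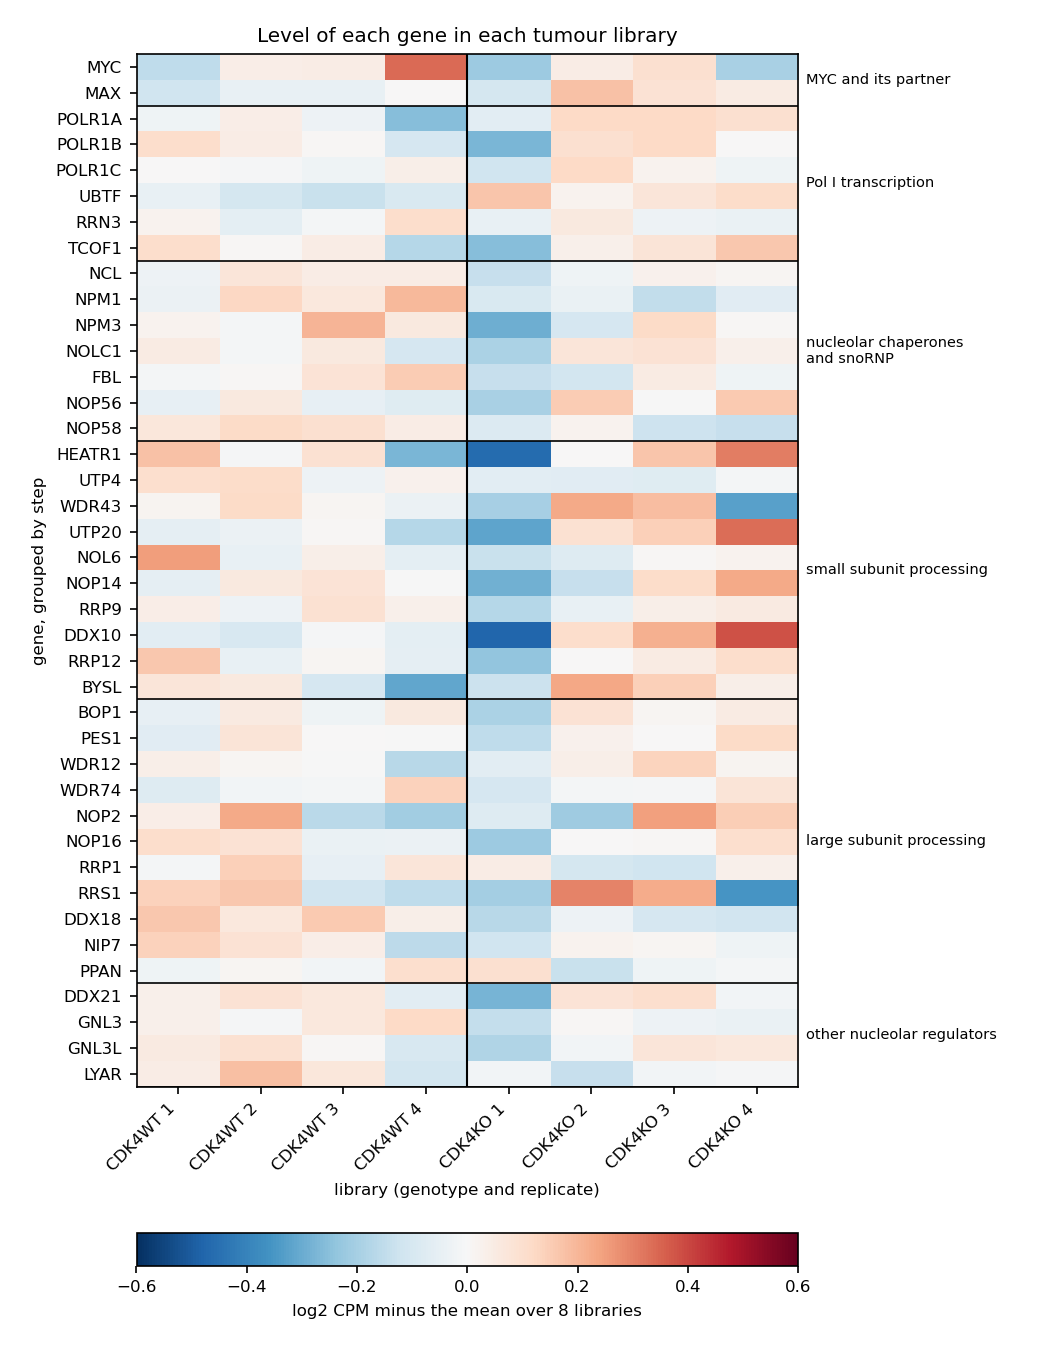
Level of each gene in each library as log2 CPM minus its mean over the 8 libraries, with genes in rows grouped by step and libraries in columns. CDK4KO replicate 1 is below the mean in 37 of 40 rows, and no step has a block of one colour that follows the genotype.

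The order of the CDK4KO libraries was also read gene by gene. In 7 of 40 members (17.5%; 3.71% of all genes) CDK4KO replicate 1 was the lowest and CDK4KO replicate 4 the highest of the 8 libraries: TCOF1, NOP56, HEATR1, UTP20, NOP14, DDX10 and PES1. In 15 of 40 (37.5%; 20.4% of all genes) CDK4KO replicates 1 and 4 both lay below replicates 2 and 3, and MYC, MAX, WDR43, RRS1 and BYSL were among them. The opposite order was found for 4 of 40 (10%; 20.7% of all genes). These orders were picked after the values were seen and have no test. They are not separate from the low values of CDK4KO replicate 1, the lowest library for 60% of members and 17.3% of all genes. CDK4KO replicate 4 was the highest library in 17.5% of members and 17.8% of all genes.

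The spread between tumours of 1 genotype was small for most members. The median SD of log2 CPM was 0.08 in CDK4WT and 0.11 in CDK4KO, against 0.10 and 0.14 over all genes. It was larger in CDK4KO for 28 of 40 members (70%; 67.5% of all genes). Without CDK4KO replicate 1 the median SD of CDK4KO was 0.06, and it exceeded that of CDK4WT for 15 of 40 (37.5%; 57.1% of all genes). The largest SDs in CDK4KO were 0.37 for DDX10, 0.33 for HEATR1, 0.32 for RRS1 and 0.28 for WDR43 and 0.27 for UTP20, and MYC had the widest CDK4WT range of the 40, 1.40-fold. WDR43 and RRS1 kept their wide spread when CDK4KO replicate 1 was left out, with CDK4KO SDs of 0.31 and 0.35, while that of DDX10 was 0.14.

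**Figure D5:**
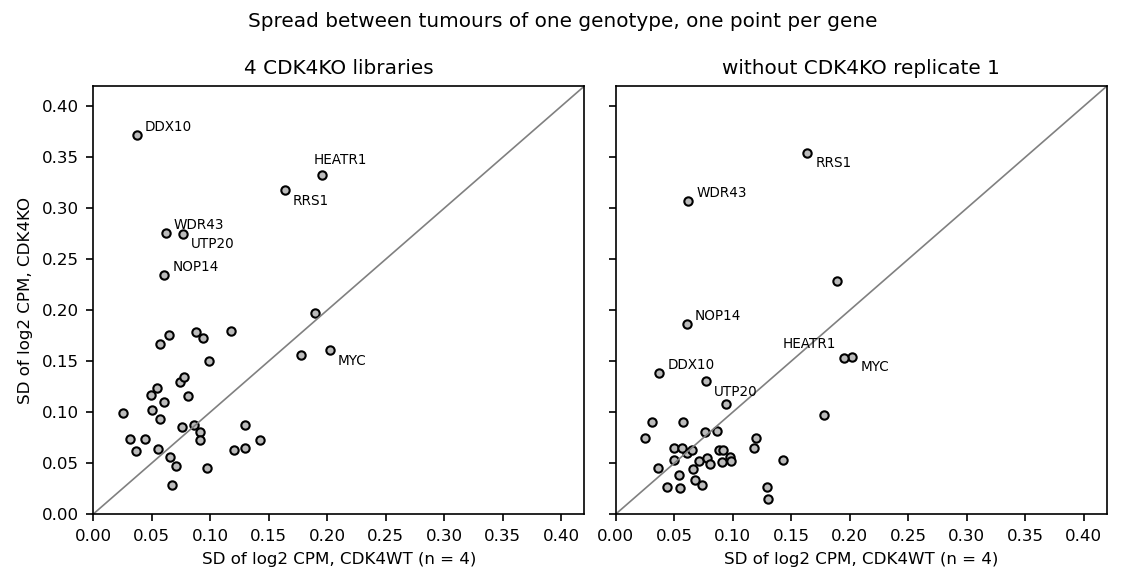
SD of log2 CPM between tumours for each of the 40 genes, CDK4WT on the horizontal and CDK4KO on the vertical axis, with all 4 CDK4KO libraries on the left and without replicate 1 on the right; the line marks equal SDs. On the left 28 points lie above the line and on the right 15.

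Per kilobase of exon, which allows levels to be set side by side between genes, NPM1 was the most abundant member at 230.1 ± 19.0 CPM per kb (SD, n = 8), followed by NCL at 85.6 ± 3.82 and MYC at 73.0 ± 9.58 CPM per kb. The ranges of NCL and MYC over the 8 libraries overlapped, at 77.8 to 90.0 and 62.3 to 91.6 CPM per kb, as did those of MYC and FBL (62.1 ± 4.17 CPM per kb). NOLC1 and DDX21 followed at 54.4 ± 3.57 and 53.8 ± 4.44 CPM per kb and did not differ beyond their spread. NOP56 stood at 43.5 ± 3.59 CPM per kb and its partner NOP58 at 18.3 ± 1.27 CPM per kb, with no overlap of their ranges. In the PeBoW complex BOP1 had 26.3 ± 1.57, PES1 18.1 ± 1.02 and WDR12 4.94 ± 0.291 CPM per kb. DDX10 (6.66 ± 1.13) and HEATR1 (5.45 ± 0.9) were near the lower end, and NOP2 was lowest at 0.233 CPM per kb. These lengths are unions of all annotated exons in GENCODE 29, so a gene with many long isoforms is set too low.

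Fold changes were set beside the E-box. The 13 members with CACGTG in the promoter had a median log2 fold change of -0.05 (3 positive, 10 negative), the 19 with a promoter and no CACGTG -0.02 (8 positive, 11 negative), and the 8 without an entry -0.03. Of the 4 members that separated the genotypes, NPM1 and UBTF had a promoter entry, and neither held CACGTG. UTP20 and BYSL, with positive fold changes, and GNL3, FBL and UTP4, with negative ones, all held the motif printed above.

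Other genes of the pathway, taken from lists of textbook factors, were counted in the same fit, and with all 8 libraries edgeR called 0 in each of the 8 lists. Without CDK4KO replicate 1 edgeR called LAS1L and CCND2 (1.35% of all genes called), as did limma voom (2.37%), and DESeq2 called TSR1 and CCND2 (2.33%). Without CDK4KO replicates 1 and 4 together edgeR called LAS1L, CCND2, TAF1C and MGA (3.3% of all genes), the last pair named here after their values were seen. In the MYC network 11 of 19 fold changes were positive, with a median of 0.006 and 3 genes at an unadjusted p of 0.05 (15.8%; 13.0% of all genes). PIM1, a kinase that acts with MYC, had -0.44 ± 0.15, MXD4, a MAX partner that opposes MYC, 0.21 ± 0.07, and RUVBL2, a chromatin ATPase, -0.14 ± 0.05 (edgeR adjusted p = 0.266, 0.272 and 0.324). Of 25 other textbook MYC targets 6 were positive and 19 negative, with a median of -0.06 and 5 at an unadjusted p of 0.05 (20%; 13.0% of all genes). CCND2, a cyclin D, was the furthest up at 0.69 ± 0.15 (SE; 95% interval 0.36 to 1.02; edgeR adjusted p = 0.113). It was 0.77 without CDK4KO replicate 1, where edgeR's adjusted p was 0.0326, and 4 of 18 alternatives called it, with adjusted p from 0.00197 to 0.328. TFRC, the transferrin receptor, had -0.24 ± 0.08, and HSPE1, a mitochondrial chaperonin, -0.39 ± 0.13. CCND2 and HSPE1 separated the genotypes, 2 of 25 genes (8%; 7.68% of all genes).

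The further biogenesis genes numbered 140 of 143 listed. Of these 49 fold changes were positive and 91 negative, with a median of -0.04 (-0.009 and 66 positive without CDK4KO replicate 1). At an unadjusted p of 0.05, 1 was higher and 11 lower (6.64% and 6.33% of all genes), and 8 separated the genotypes, each lower in CDK4KO (5.71%; 3.81% of all genes in this direction). In the small-subunit list 14 of 46 were positive, and TSR1, a late-stage GTPase-like factor, AATF and NAT10, an RNA acetyltransferase, had -0.19 ± 0.05, -0.17 ± 0.05 and -0.14 ± 0.05, without overlap (edgeR adjusted p = 0.204, 0.224 and 0.286). In the large-subunit list 18 of 52 were positive. LAS1L, an endonuclease of the internal spacer, had -0.35 ± 0.10 (SE; 95% interval -0.57 to -0.13; edgeR adjusted p = 0.190), and the median of its 10 nearest genes on chromosome X was -0.43. Without CDK4KO replicate 1 it was -0.46 (edgeR adjusted p = 0.0217), and 3 of 18 alternatives called it, with adjusted p from 0.00987 to 0.406. PAK1IP1 and WDR55 had -0.18 ± 0.07 and -0.11 ± 0.05. The other Pol I machinery had 4 positive and 12 negative, with a median of -0.09 and POLR2H at -0.16 ± 0.06. The snoRNP list had 6 of each sign, with PIH1D1, an assembly cofactor, at -0.16 ± 0.05, and the nuclear exosome list 7 of each, with its cofactor C1D at -0.25 ± 0.11.

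When ribosome assembly fails, free RPL5 and RPL11 bind MDM2 and stabilise p53, which MDA-MB-231 carries in mutant form. RPL5 stood at 620.0, 585, 617 and 726 CPM in CDK4WT replicates 1 to 4 and 569, 572, 548 and 479 CPM in CDK4KO replicates 1 to 4, without overlap between the genotypes, and a fold change of -0.23 ± 0.08 (SE; 95% interval -0.42 to -0.05; edgeR adjusted p = 0.281). RPL11 had -0.13 ± 0.07 (edgeR adjusted p = 0.432) with overlap. Ribosomal protein genes have many near-identical processed pseudogenes, so both levels are uncertain. CDKN1A, the p21 gene that p53 and other factors induce, had a fold change of 0.36 ± 0.12 (SE; 95% interval 0.10 to 0.62; edgeR adjusted p = 0.246) and separated the genotypes with CDK4KO higher.

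Growth-related genes of other kinds were read in the same libraries. The 14 proliferation genes had 5 positive and 9 negative fold changes and a median of -0.03. The 10 hypoxia genes, which respond to low oxygen, had negative fold changes in 10 of 10, with a median of -0.52. With all libraries edgeR called 0 of them (0.0591% of all genes), 10 were at an unadjusted p of 0.05 (13.0% of all genes), and DESeq2 called 7 (2.33%). Without CDK4KO replicate 1 edgeR called CA9 and EGLN3, without CDK4WT replicate 2 it called CA9, and limma voom called EGLN3, named here after its values were seen. Their summed level was 3662 to 5584 CPM in CDK4WT, highest in replicate 4 where MYC was also highest, and 2575 to 3619 CPM in CDK4KO. Its part in the values of MYC was not tested.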

How the data were processed

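Trizol-extracted RNA from 4 CDK4WT and 4 CDK4KO tumours was used for mRNA libraries, per the labels' protocols. Raw counts, given for each Ensembl gene as whole reads, were deposited by the authors in 1 table without normalization. Per the submitters' processing notes, cutadapt, STAR 2.7.11a, featureCounts 2.0.4 and DESeq2 1.46.0 were used with hg38. Not given in the sources used here are the annotation release, the strand setting and what was done with mouse reads. The CDK4KO columns were matched to replicates 1 to 4 through the library numbers in the labels.

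Symbols were found for 13524 of 13546 identifiers. The genotype contrast was fitted by edgeR 4.0.16 in R 4.3.3 (quasi-likelihood test after filterByExpr, with TMM scaling, robust dispersions and Benjamini-Hochberg adjustment over the whole table), and the common biological coefficient of variation was 11.7%. SDs of log2 CPM use a prior count of 2. Genes were placed with GENCODE 29. The steps were tested on simulated data. With these totals, spread between tumours rather than counting limits most members. NOP2, at 27 to 43 counts, is an exception. Counting may also weigh in members of small spread such as PPAN, at 519 to 643 counts. P-values measure the spread between these libraries, which the labels do not tie to separate mice.

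Members and lists were chosen with earlier results of these data known. Values in all libraries are given for MYC, MAX and the 3 members of each step with the smallest p, and other members are named for extreme levels, spread or fold change, or separation. Up to 3 genes per further list are named, with CDK4, RPL5 and RPL11. NOP14, RRS1, WDR43, UTP20 and DDX10 were given more room after their spread was seen. Alternatives were DESeq2 1.42.0, limma 3.58.1 voom with library weights, other scalings, filters and dispersions, the replicate number as a block, and libraries left out.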

Additional observations from a re-analysis of the deposited data

Results flagged for a closer look

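In 4 of 80 groups of 4 libraries, 1 library stood far from the other 3 by Dixon's 95% criterion, and chance gives about 1 group in 20. POLR1A, the largest polymerase I subunit, was at 146 CPM in CDK4KO replicate 1 and at 163 to 166 CPM in the other 3 CDK4KO libraries. RRN3, the polymerase I initiation factor, was at 40.2 CPM in CDK4KO replicate 2, against 37.5 to 37.9 CPM. UTP4, an early small-subunit factor, was at 46.2 CPM in CDK4KO replicate 4, against 44.3 to 44.6 CPM. LYAR, a nucleolar zinc finger protein, was at 49.1 CPM in CDK4KO replicate 2, against 53.4 to 53.8 CPM. These gaps are narrow in CPM for RRN3 and UTP4, because the other 3 libraries lay close together.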

How the results depend on the processing

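Genes called over the whole table numbered 8 with edgeR, 14 without TMM scaling, 315 with DESeq2, 321 with limma voom and library weights, and 447 without CDK4KO libraries 1 and 4 together; leaving out each library in turn gave 0 to 183, the most without CDK4KO replicate 1. Members called numbered 2 with DESeq2 (UBTF and DDX18) and 0 under each of the other 17 alternatives. The median log2 fold change of the members ran from -0.06 to 0.02 when each library was left out in turn, positive only without CDK4KO replicate 1. Of 108 step medians under alternatives, 107 moved by less than 1 SD; the Pol I step moved to 0.08 without CDK4KO libraries 1 and 4 together.

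Direction held under all 18 alternatives for 22 members, among them UBTF, NPM1, NOP58, DDX18, MYC and MAX. The other 18 changed sign at least once, and with all libraries the largest of their fold changes was 0.052 in size. Upper-quartile scaling gave -0.0055 for POLR1C, -0.0036 for NOLC1 and -0.0063 for RRS1, and the stricter filter -0.0018, -0.00019 and -0.0014. With limma voom, POLR1B was 0.023, RRN3 0.0077, HEATR1 -0.0050, WDR43 0.066, BOP1 0.029, PES1 0.0056 and WDR74 0.0028. Without CDK4KO libraries 1 and 4 together, POLR1B was 0.090, RRN3 0.00029, WDR43 0.179, RRP12 0.0054, BOP1 0.039, PES1 0.0088, DDX21 0.061 and GNL3L 0.011.

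Leaving out each library in turn, fold changes ran from -0.067 to 0.054 for POLR1B, -0.040 to 0.038 for POLR1C, -0.052 to 0.0020 for RRN3, -0.044 to 0.088 for TCOF1, -0.031 to 0.062 for NOLC1, -0.078 to 0.157 for HEATR1, -0.125 to 0.056 for WDR43, -0.118 to 0.051 for NOP14 and -0.077 to 0.031 for RRP12. They ran from -0.052 to 0.036 for BOP1, -0.044 to 0.042 for PES1, -0.050 to 0.022 for WDR74, -0.031 to 0.139 for NOP2, -0.095 to 0.0061 for NOP16, -0.106 to 0.108 for RRS1, -0.075 to 0.0023 for PPAN, -0.095 to 0.024 for DDX21 and -0.066 to 0.022 for GNL3L. The cause of these sign changes was not tested.

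No pairing by replicate number was visible: deviations of same-numbered libraries correlated at -0.031, -0.014, 0.003 and 0.194. Of these, 1 of 4 pairs correlated best with its own number. Such correlations cannot exclude a shared mouse or day, which the labels do not state. With the replicate block 13 genes were called, 0 of them members and 1 the hypoxia gene CA9, and POLR1C (-0.00021) and RRS1 (-0.014) changed sign. For NOP2, at 27 to 43 counts, depth limits what can be seen.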
